A study of Mus musculus with 36 samples.

Results

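Conventional type 1 dendritic cells (cDC1) from mouse bone marrow, named in the labels as FLT3L cells after the growth factor FLT3 ligand, were compared after LPS given together with PGPC and after no treatment. The comparison rests on 6 of the 36 libraries of the series, 3 of each group, and on all 12463 genes that passed a filter on low counts out of 53299 in the table. These 6 libraries were chosen by their labels alone. Libraries of cDC1 given LPS alone or PGPC alone, and of conventional type 2 dendritic cells (cDC2), untreated or given both stimuli, were used to place the response, with 3 libraries in each. The spread of each gene, and so each p-value, was estimated from 23 libraries in 8 groups, which include cDC2 given LPS alone or PGPC alone. The source tissue and the FLT3L name are shared by all of these groups. The sources used here do not state mouse strain, age, dose, duration, any sort or gate, or whether replicates came from different animals, so p-values measure the spread between the libraries as deposited.

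cDC1 are the dendritic cells best known for taking up dying cells and presenting their antigens on MHC class I to CD8 T cells. LPS, a cell wall product of Gram-negative bacteria, is handed to the receptor TLR4 by CD14 and signals through MyD88 to NF-kB and through TRIF to IRF3, type I interferon and interferon-stimulated genes. PGPC is an oxidized phospholipid of the kind released by dying cells, and in other dendritic cells it is known for letting LPS-primed cells release interleukin-1 beta while they stay alive.

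Total counts were 2471460, 8664027 and 7450622 in untreated replicates 1, 2 and 3, and 6121000, 8290415 and 11999793 in LPS plus PGPC replicates 1, 2 and 3. Counts of 4 genes that overlap the ribosomal RNA locus took 71.9, 40.7 and 47.0% of the untreated libraries and 7.70, 26.6 and 39.1% of the LPS plus PGPC libraries, so the share was higher in every untreated library. Untreated replicate 1 held 1165528 counts after scaling, against at least 6619355 in the other 5 libraries, so a count of 0 there allows a level of up to 2.57 CPM (counts per 1000000 on scaled totals), a limit set at 3 counts. LPS plus PGPC replicate 1 stood apart from its group, with a Spearman rho of 0.892 and 0.893 to replicates 2 and 3, which had 0.955 with each other.

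The labelled cell type was checked against its markers. In untreated cDC1, the cDC1 factor Batf3 had 41.2, 38.8 and 23.1 CPM and Irf8, the factor that cDC1 need, had 1329, 808 and 559.9 CPM in replicates 1, 2 and 3. Clec9a, the cDC1 receptor for dead cells, had 24.02, 14.4 and 72.4 CPM, whereas the chemokine receptor Xcr1, a defining cDC1 marker, was at or near 0 with 0, 0.379 and 0.151 CPM and stayed low with both stimuli, at 1.41, 0.908 and 0.374 CPM. Markers of other cells were also present. The 17 genes of the macrophage list summed to 2338, 6162 and 5668 CPM without treatment and to 969, 958 and 627 CPM with both stimuli. The stromal list summed to 329, 376 and 841 against 126, 25.5 and 143 CPM, and the plasmacytoid dendritic cell list to 762, 666 and 828 against 311, 469 and 404 CPM. The neutrophil list summed to 48.9, 208 and 89.7 against 1.15, 70.5 and 20.8 CPM, with overlap. B cell genes summed to 132, 217 and 260 against 221, 157 and 144 CPM. Mast cell or basophil genes summed to 97, 130.5 and 172 against 34, 134 and 71.7 CPM. Genes of the cDC2 list summed to 1365, 1056 and 1101 against 968, 1189 and 1113 CPM. These lists overlapped between the groups. T or NK cell genes summed to at most 20.1 CPM and red cell genes to at most 8.13 CPM in any of the 6 libraries. Genes of cDC1 identity summed to 2732, 2155 and 1856 against 1246, 1032 and 802 CPM, without overlap. In untreated replicates 2 and 3 the cDC1 sum lay below the macrophage sum. Most of that macrophage sum came from Lyz2 and Apoe, so sums of unlike lists do not measure shares of cells. The macrophage, stromal and plasmacytoid sums were lower in every LPS plus PGPC library, and their part in the results was not tested. In libraries made from many cells, fewer cells of a kind and less RNA per cell cannot be told apart.

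**Figure D1:**
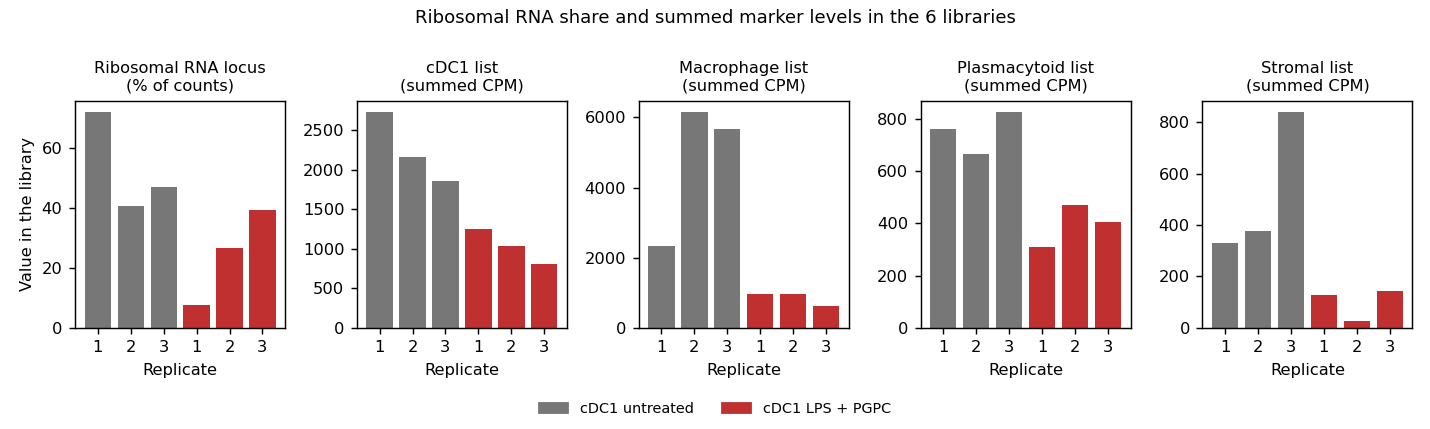
Share of counts from the ribosomal RNA locus (percent) and summed level of 4 marker lists (CPM) in each of the 6 libraries, with grey bars for untreated cDC1 and red bars for LPS plus PGPC. Every untreated bar stands above every LPS plus PGPC bar in all 5 panels, and untreated replicate 1 has the highest ribosomal RNA share, 71.9%.

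In the cDC1 libraries given both stimuli, Il1a, Il1b and most tested chemokine, interferon-stimulated, NF-kB, costimulatory and MHC class I genes were called higher. Most genes of the macrophage list were called lower, as were 6 of 12 plasmacytoid and 10 of 35 cell division genes. By edgeR's quasi-likelihood test with Benjamini-Hochberg adjustment, 1482 of the 12463 genes (11.9%) had an adjusted p under 0.05, the threshold for a call. Of these 819 (6.57%) were higher and 663 (5.32%) lower with LPS plus PGPC, and 576 (4.62% of all genes) were at least 4-fold higher and 449 (3.6%) at least 4-fold lower. At an unadjusted p under 0.05 there were 3223 genes (25.9%). The 3 libraries of one group lay wholly above those of the other for 1837 genes (14.7%) in the direction of LPS plus PGPC and for 1882 genes (15.1%) in the direction of untreated cells. Over all genes tested the log2 fold change had a median of -0.09. The counts given for gene lists are to be read against the 6.57% of all genes that rose and the 5.32% that fell. The lists were chosen with earlier results of these data known. An excess over these shares may come in part from that choice and is no test. In several lists the few members that fell are near the share of all genes. Without replicate 1 of either group, a choice made after seeing the data, 591 genes were higher and 458 lower, and 877 of these 1049 were also among the 1482.

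**Figure D2:**
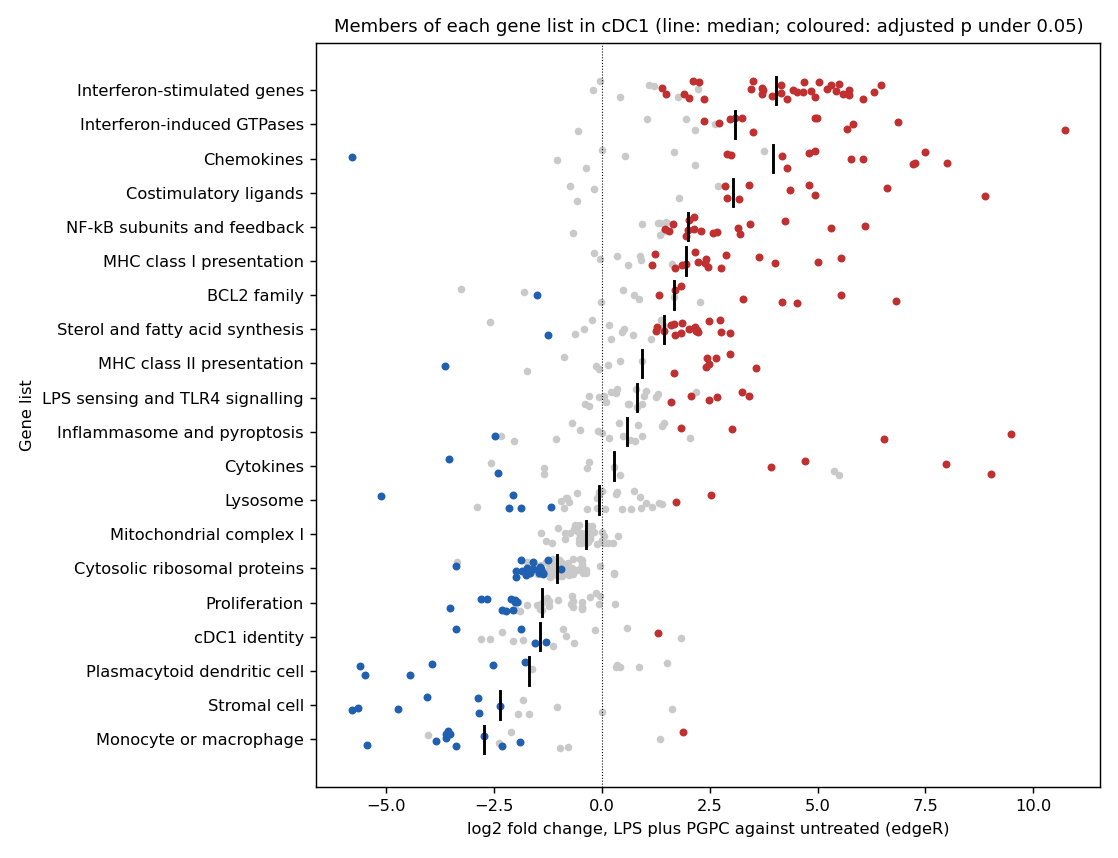
log2 fold change of each tested member of 20 gene lists, LPS plus PGPC against untreated cDC1, with 1 point per gene, red or blue where the adjusted p was under 0.05 and grey otherwise, and a black line at the list's median. Points of genes without a count in one group depend on the prior count. The interferon-stimulated list lies almost wholly to the right, with 33 of 40 genes called higher, and the macrophage list to the left, with 10 of 17 called lower.

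The receptor complex for LPS changed in part. Of 25 genes for LPS sensing and TLR4 signalling, 6 rose and none fell, where 6.57 and 5.32% of all genes did, and the median log2 fold change was 0.81. Cd14, the coreceptor that passes LPS to TLR4, went from 24.9, 31.2 and 31.1 CPM in the untreated libraries to 172, 159.9 and 162 CPM with both stimuli, and the groups did not overlap (log2 fold change 2.49 ± 0.59, adjusted p = 0.00542). Tlr4 itself had 16.3, 8.71 and 10.3 CPM against 3.08, 9.65 and 14.96 CPM, with overlapping groups, a difference of -0.30 ± 0.57 on the log2 scale (adjusted p = 0.808). The adapter Ticam1, which encodes TRIF, rose from 24.9, 52.3 and 39.1 to 155, 167 and 174 CPM (2.07 ± 0.45 on the log2 scale), and Traf3, a ubiquitin ligase of the TRIF branch, rose from 14.6, 14.1 and 11.8 to 67.7, 77.4 and 112 CPM (2.67 ± 0.36). Tank, a scaffold for the kinases that activate IRF3, and Ikbke, one of those kinases, had log2 fold changes of 3.25 ± 0.49 and 3.42 ± 0.93. Every LPS plus PGPC library lay above every untreated one for these 4 genes. The call for Ikbke was lost without LPS plus PGPC replicate 1 (adjusted p = 0.0524) or without untreated replicate 2 (adjusted p = 0.0906).

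Other sensors of microbes moved in both directions, 4 of 17 up and 2 down with a median of 1.28. Tlr1, which pairs with TLR2 to sense bacterial lipoproteins, rose from 0, 1.77 and 6.65 to 108, 178 and 160.4 CPM, a log2 fold change of 5.46 ± 0.59 (adjusted p = 1.38e-06). The 3 cytosolic RNA sensors of the RIG-I family rose together: Ddx58, which encodes RIG-I, by 4.91 ± 0.73, Ifih1, which encodes MDA5, by 2.74 ± 0.46 and Dhx58, their regulator, by 3.56 ± 0.68 on the log2 scale. Tlr8, an endosomal sensor of RNA breakdown products, fell from 5.15, 3.79 and 7.705 CPM to 0, 0.3405 and 0 CPM (adjusted p = 0.00231). Its groups did not overlap, and all LPS plus PGPC values were at or near 0.

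NF-kB is the family of factors that carries TLR signals to inflammatory genes, and many of its own subunits and brakes are its targets. Of 24 such genes 17 rose and none fell, with a median log2 fold change of 2.00, and 15 rose without replicate 1 of either group. Relb, the subunit of the slower, alternative NF-kB arm, went from 20.6, 34.5 and 19.6 to 1691, 611 and 686 CPM, a log2 fold change of 5.31 ± 0.54 (adjusted p = 7.66e-07). Traf1, an adapter at TNF family receptors, went from 5.15, 10.5 and 11.9 to 925, 510.2 and 559.9 CPM (6.11 ± 0.63). Without LPS plus PGPC replicate 1 the value for Relb was 4.68. Both genes were highest in that library, and their lowest LPS plus PGPC value was far above the highest untreated one. Among the brakes, Nfkbia, which encodes the inhibitor that holds NF-kB in the cytoplasm, rose from 120.1, 140.3 and 108 to 1822, 775 and 774 CPM (3.19 ± 0.46), and Tnip3 and Birc3 had log2 fold changes of 4.24 ± 0.57 and 2.67 ± 0.43.

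Promoters of 3 of these genes are shown because each holds a kappaB motif, the sequence that NF-kB dimers bind, in capitals. They are from RefSeq on GRCm38.p6, written 5' to 3' along the gene's strand, and end before the start site. The search for the motif on both strands of the 250 bases before the start site found it for 10 of the 20 list members with a window (50.0%), for 1004 of 9428 tested genes (10.6%) and in 2382 of all 32851 windows (7.25%). The same motif was present for 104 of 642 genes called higher (16.2%) and 51 of 499 called lower (10.2%). A match is a description of the letters and no sign of binding. The stretches are chr6:65590304-65590393 on the plus strand for Tnip3, chr12:55492648-55492716 on the minus strand for Nfkbia and chr11:23771011-23771100 on the minus strand for Rel, which encodes the subunit c-Rel and rose by 1.96 ± 0.39 on the log2 scale. In Tnip3 the same letters match on both strands, and in Rel overlapping matches run together.
Tnip3: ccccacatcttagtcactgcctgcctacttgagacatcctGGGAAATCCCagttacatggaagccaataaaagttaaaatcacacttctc
Nfkbia: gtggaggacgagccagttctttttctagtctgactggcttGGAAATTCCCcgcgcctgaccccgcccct
Rel: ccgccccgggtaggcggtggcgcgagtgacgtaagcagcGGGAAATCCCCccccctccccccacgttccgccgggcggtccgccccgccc

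Immediate early factors, the first wave of genes that follow a signal, rose in 7 of 26 cases, fell in none and had a median of 0.94. Dusp5, a phosphatase that limits ERK kinases, went from 18.02, 26.9 and 35.8 to 305, 423 and 652 CPM (4.07 ± 0.44), and Klf6, a zinc finger factor, from 99.5, 143 and 93.7 to 969, 318 and 506 CPM (2.41 ± 0.38). Neither gene overlapped between the groups. The orphan nuclear receptor Nr4a3 rose by 3.96 ± 0.78, the MAP kinase phosphatase Dusp1 by 2.76 ± 0.48 and the AP-1 subunit Junb by 2.09 ± 0.41 on the log2 scale.

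Of 15 tested cytokine genes 4 rose and 2 fell, where 6.57 and 5.32% of all genes did, with a median of 0.29. Il1a and Il1b are counted apart, in the list of the interleukin-1 family and its receptors. There 2 of 13 rose and 1 fell, with a median of 0.64. Il1b, which encodes interleukin-1 beta, went from 0.858, 0.126 and 0.604 CPM without treatment to 201, 384 and 323 CPM with both stimuli, a log2 fold change of 9.48 ± 1.03 (adjusted p = 1.55e-06). It lies on chromosome 2 from 129364570 to 129371139 (GRCm38, GENCODE M21). Its partner Il1a went from 0, 0 and 0.604 to 18.2, 35.4 and 23.3 CPM (6.53 ± 1.15, adjusted p = 0.000441). Both were at the edge of detection in every untreated library and well above it in every treated one. With so few untreated counts the fitted values moved when 1 untreated library was left out, from 8.80 to 10.16 for Il1b and from 5.66 to 10.20 for Il1a, without replicates 2 and 3 in turn.

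Tnf, an early inflammatory cytokine, rose from 1.72, 1.39 and 4.08 to 27.04, 85.6 and 86.4 CPM (4.70 ± 0.56). Il6 had no count in the 3 untreated libraries and 2.05, 14.98 and 16.2 CPM with both stimuli, at least 9.75-fold higher against a floor of 3 counts per library. LPS plus PGPC replicate 1 was the lowest of its group for both genes. Il12b, the subunit shared by interleukins 12 and 23, had 3 counts in all untreated libraries and 96.1, 33.02 and 45.1 CPM with both stimuli, a ratio of 292 with a counting interval (exact, 95%) of 99.7 to 1417, and here replicate 1 was the highest. Il15, a cytokine that sustains CD8 T cells and NK cells, rose from 0.858, 1.14 and 1.36 to 9.098, 21.8 and 23.7 CPM (3.93 ± 0.72). Il16, made as a precursor and a chemoattractant for CD4 cells once cleaved, fell from 148, 112 and 135 to 8.201, 15.4 and 10.3 CPM (-3.54 ± 0.42, adjusted p = 4.39e-06), with no overlap. The anti-inflammatory cytokine Il10 stayed low at 0.641, 1.59 and 0.654 CPM, against no count in untreated cells (adjusted p = 0.0631), and Il27 and Il23a did not pass the filter.

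Genes of the inflammasome, the complex that activates caspase-1 to cut interleukin-1 beta, changed in part. Of 22 genes 4 rose and 1 fell, where 6.57 and 5.32% of all genes did, with a median of 0.58. Il1a and Il1b, which are in this list too, make up 2 of the 4. Nlrp3, the sensor, had 6.86, 5.05 and 8.31 CPM without treatment and 4.101, 35.5 and 31.9 CPM with both stimuli (1.83 ± 0.56, adjusted p = 0.0307). Replicates 2 and 3 were high and replicate 1 was below all untreated libraries, so the groups overlapped, and the call was lost without any 1 of 5 libraries, all but LPS plus PGPC replicate 1, with adjusted p of 0.0567 to 0.135. Casp4, the intracellular receptor for LPS, rose from 0, 1.14 and 2.87 to 7.69, 19.2 and 13.1 CPM (3.02 ± 0.71). Txnip, a thioredoxin-binding protein linked to NLRP3, fell from 72.1, 40.8 and 73.7 to 14.4, 10.4 and 8.599 CPM (-2.48 ± 0.57). The protease Casp1 differed by 1.41 ± 0.58 on the log2 scale (adjusted p = 0.122), the adapter Pycard -0.68 ± 0.38 (adjusted p = 0.28) and the pore protein Gsdmd 1.44 ± 0.48 (adjusted p = 0.0505), and none of the 3 passed. Casp1 was called without LPS plus PGPC replicate 1 (adjusted p = 0.0428) and Gsdmd without LPS plus PGPC replicate 2 (adjusted p = 0.048). Gsdmd was a borderline case: it stayed uncalled in 9 of 18 alternative settings and was called higher in the others. Among the receptors and inhibitors of the pathway, the decoy receptor Il1r2 fell from 6.01, 16.03 and 8.61 to 1.03, 1.702 and 2.06 CPM, a call lost without LPS plus PGPC replicate 1 (adjusted p = 0.0592) or untreated replicate 2 (adjusted p = 0.0835). The receptor antagonist Il1rn had 5.15, 1.77 and 3.02 against 21.4, 24.3 and 14.2 CPM (adjusted p = 0.0525). It stayed uncalled in 15 of 18 alternative settings and was called higher in the others.

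Chemokine genes, which call other leukocytes to the cell, held some of the largest differences. Of 20 tested, 12 rose and 1 fell, with a median log2 fold change of 3.97, or 2.95 with genes absent from one group set at their bound, and the same counts held without replicate 1 of either group. Ccl5, a ligand that draws T cells and NK cells, went from 12.9, 14.4 and 12.99 to 1176, 2503 and 2490.1 CPM, a log2 fold change of 7.25 ± 0.53 with the smallest adjusted p of the list, 5.56e-09. It lies on chromosome 11 from 83525778 to 83530518 (GRCm38, GENCODE M21). Ccl22, a ligand of CCR4 on T cells, went from 3.43, 2.52 and 11.3 to 1015, 1662 and 1992 CPM (8.0 ± 0.63). In both genes replicate 1 was the lowest of the LPS plus PGPC group and yet more than 10 times any untreated library.

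Cxcl16, a membrane-bound ligand of CXCR6, rose from 46.3, 79.2 and 95.3 to 1721, 1190.4 and 1432 CPM (4.29 ± 0.45). Ccl4, a chemokine with near relatives in the genome, rose from 0.858, 6.19 and 1.81 to 105, 297 and 166 CPM (5.78 ± 0.84), so its reads may be shared with them. Cxcl10, an interferon-induced ligand of CXCR3, went from 0, 0.884 and 0.604 to 9.35, 92.6 and 35.9 CPM (6.06 ± 0.90), and its 3 treated values spread about 10-fold. Cxcl14 was the 1 chemokine that fell, from 8.58, 14.8 and 15.7 to 0.384, 0 and 0.2804 CPM (-5.78 ± 0.70), and it was also counted in the stromal list.

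Mature dendritic cells leave tissues for the lymph node, and genes for that journey moved with both stimuli. Of 26 genes for chemokine receptors and migration 8 rose and 2 fell, where 6.57 and 5.32% of all genes did, with a median of 1.16. The number that fell was near the share of all genes. Ccr7, the receptor that guides dendritic cells to lymph nodes, went from 39.5, 40.9 and 82.2 to 4242, 2217 and 2714 CPM, a log2 fold change of 5.81 ± 0.64 (adjusted p = 1.64e-06), with replicate 1 the highest. Fscn1, the actin-bundling protein of dendrites, rose from 154, 65.5 and 278 to 1493, 1579 and 1882 CPM (3.32 ± 0.46). Marcksl1, an actin regulator, rose by 4.02 ± 0.44 and the adhesion molecule Icam1 by 3.19 ± 0.52 on the log2 scale.

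Ligands that costimulate T cells rose in 9 of 14 cases and fell in none, and their median was 3.05 (2.89 when genes without an untreated count are set at their bound). Cd40, the receptor through which T cells help dendritic cells, went from 2.57, 5.43 and 5.59 to 134, 163 and 110.4 CPM (4.80 ± 0.61, adjusted p = 9.63e-06). Cd86, a ligand of CD28, went from 0.858, 7.83 and 5.29 to 42.8, 79.3 and 46.5 CPM (3.41 ± 0.50), and the maturation marker Cd83 from 37.8, 30.3 and 43.1 to 1129, 567 and 587 CPM (4.36 ± 0.43). In all 3 genes the groups were far apart. Cd80, the other CD28 ligand, was low in both, at 0, 0.505 and 0.604 against 3.33, 3.06 and 4.2997 CPM, and although called (2.86 ± 0.85, adjusted p = 0.0273) it was not called without LPS plus PGPC replicate 3 (adjusted p = 0.0693) or any 1 untreated library (adjusted p up to 0.0854). Pvr, a ligand of CD226 and TIGIT, rose by 4.93 ± 0.59. Dll4, a Notch ligand, had 1 count in all untreated libraries and 63.3, 30.6 and 25.7 CPM with both stimuli, a ratio of 598 with a counting interval of 107 to 23620.

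Genes that restrain T cells rose beside them, 5 of 16 with 1 that fell and a median of 0.75. Cd274, which encodes PD-L1, went from 20.6, 13.5 and 16.5 to 94.3, 165 and 99.5 CPM (2.85 ± 0.48) and Cd200, a ligand of an inhibitory receptor, from 2.57, 1.14 and 4.38 to 94.2, 54.9 and 85.4 CPM (4.85 ± 0.56). Il4i1, a secreted amino acid oxidase, rose from 46.3, 15.02 and 32.03 to 2600.5, 1278 and 1147 CPM (5.78 ± 0.66). For these 3 genes every treated library lay above every untreated one. Socs2, a brake on cytokine receptors, rose by 3.58 ± 0.51 on the log2 scale.

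**Figure D3:**
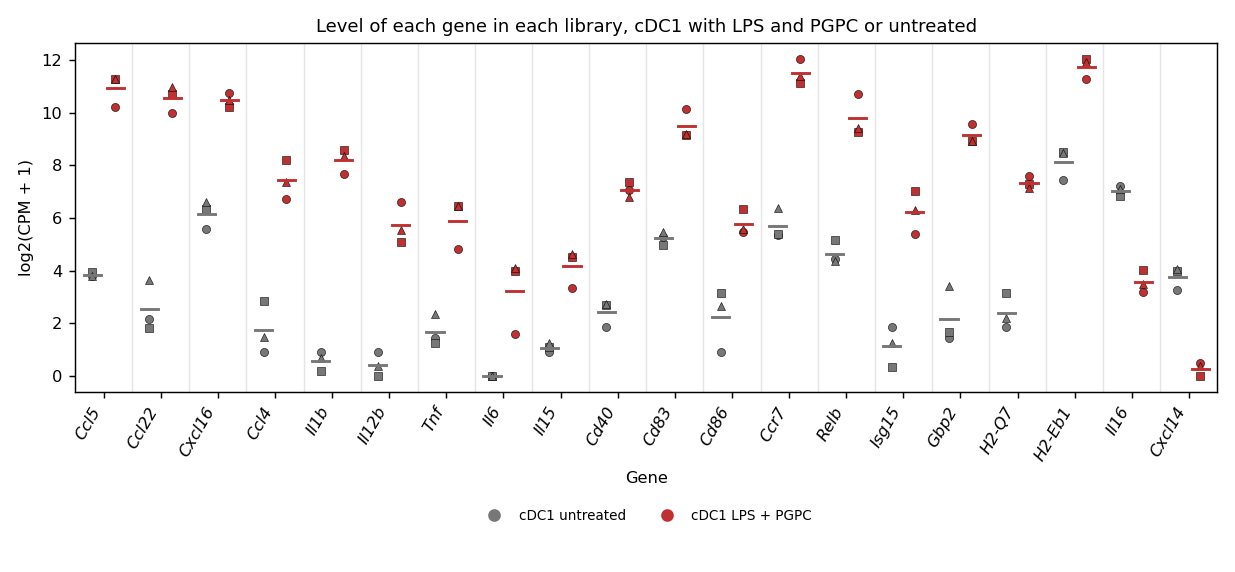
Level of 20 genes in each library as log2(CPM + 1), with grey points for untreated cDC1, red points for LPS plus PGPC, circles, squares and triangles for replicates 1, 2 and 3, and a bar at the mean of these log values. Red points lie above grey ones for all genes but Il16 and Cxcl14, where they lie below, and the widest gaps are those of Il1b, Ccl5 and Ccl22.

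Interferon-stimulated genes, which block viruses and tune antigen presentation, rose in most cases. Of 40 tested, 33 rose and none fell, with a median log2 fold change of 4.04, against -0.09 over all genes. The count was 28 without untreated replicate 1 and 33 without LPS plus PGPC replicate 1. Isg15, a ubiquitin-like modifier, went from 2.57, 0.252 and 1.36 to 40.5, 129 and 78.1 CPM (6.32 ± 0.83, adjusted p = 1.35e-05). Oas1a, a sensor of double-stranded RNA, went from 0, 4.17 and 10.6 to 95.8, 134 and 104 CPM (4.29 ± 0.62), and Mx2, an antiviral GTPase, from 0, 0.252 and 0.453 to 10.6, 16.7 and 10.1 CPM (5.23 ± 0.73). The ubiquitin ligase Herc6 rose by 3.94 ± 0.54 and Phf11d by 4.85 ± 0.67 on the log2 scale. Isg15 and Oas1a did not overlap between groups, and LPS plus PGPC replicate 1 was the lowest of the 3 treated libraries in both.

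The interferon-induced GTPases, which attack the vacuoles of intracellular microbes, rose in 12 of 17 cases with a median of 3.09. Gbp2 went from 1.72, 2.15 and 9.67 to 754, 489 and 483 CPM (6.85 ± 0.71) and Gbp3 from 3.43, 2.903 and 0.604 to 75.1, 59.8 and 61.8 CPM (4.98 ± 0.69), with wide gaps between the groups. Tgtp1 had no count in untreated cells and 28.4, 49.3 and 32.2 CPM with both stimuli, at least 32.2-fold higher. Members of the Gbp family and the pair Tgtp1 and Tgtp2 are close copies, so reads may be shared among them.

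Of 27 IRF, STAT and SOCS genes 9 rose, 5 without untreated replicate 3, and 2 fell, with a median of 1.10. Irf7, the factor that amplifies type I interferon, went from 24.02, 7.57 and 20.999 to 532, 656 and 369 CPM (4.93 ± 0.67). Jak2 and Stat3, which carry many cytokine signals, rose by 2.96 ± 0.49 and 1.62 ± 0.35 on the log2 scale. Ifnar2, a chain of the type I interferon receptor, fell from 443, 446 and 299 to 150.4, 93.5 and 70.8 CPM (-1.92 ± 0.35, adjusted p = 0.00047).

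Promoter stretches of 3 of the interferon-stimulated genes are shown because they hold GAAANNGAAA, the core of the interferon-stimulated response element (ISRE), in capitals. On both strands of the 250 bases before the start site it was found for 16 of the 30 list members with a RefSeq window (53.3%), for 337 of 9428 tested genes (3.57%) and in 978 of all 32851 windows (2.98%). It was present for 56 of 642 genes called higher (8.72%) and 17 of 499 called lower (3.41%). The stretches are chr4:156200835-156200924 on the minus strand for Isg15, chr5:120907526-120907579 on the minus strand for Oas1a and chr5:92349053-92349139 on the minus strand for Cxcl10. In Isg15 and Oas1a overlapping matches run together, whereas Cxcl10 has a single match in its window.
Isg15: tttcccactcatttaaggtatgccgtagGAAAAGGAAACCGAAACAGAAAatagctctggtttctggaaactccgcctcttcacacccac
Oas1a: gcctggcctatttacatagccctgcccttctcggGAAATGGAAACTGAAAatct
Cxcl10: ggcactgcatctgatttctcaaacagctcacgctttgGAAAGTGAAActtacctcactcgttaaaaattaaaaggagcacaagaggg

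Genes of antigen presentation on MHC class I, the route cDC1 are known for, rose in most cases. Of 23 genes 16 rose and none fell, with a median log2 fold change of 1.95, and 11 rose without replicate 1 of either group, with a median of 1.41. H2-K1, a classical class I heavy chain on chromosome 17 from 33996017 to 34000347 (GRCm38, GENCODE M21), went from 214, 365 and 237 to 2795, 1450.1 and 1338 CPM (2.77 ± 0.38, adjusted p = 2.12e-05). H2-D1 went from 1003, 1693 and 1013 to 12181, 3562 and 3629 CPM (2.38 ± 0.44), with replicate 1 at more than 3 times the other treated libraries, and differed by 1.53 on the log2 scale without it. The nonclassical chains H2-Q7 and H2-T22 rose by 5.0 ± 0.57 and 2.41 ± 0.46 on the log2 scale. Class I heavy chains are near copies of one another, so the split of reads among them is uncertain.

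On the MHC class II side 7 of 15 genes rose and 1 fell, where 6.57 and 5.32% of all genes did, with a median of 0.92. The number that fell was thus near the share of all genes. H2-Ab1 and H2-Eb1, chains of the class II molecule, went from 426, 903 and 727 to 5257, 6383 and 4591 CPM (2.98 ± 0.51) and from 172, 361 and 358 to 2492, 4262 and 3873 CPM (3.57 ± 0.58). Cd74, the invariant chain that guards their groove, had 2024, 2456 and 2066 CPM without treatment and 8604, 14123 and 12825 CPM with both stimuli (2.44 ± 0.38). All 3 genes were higher in every LPS plus PGPC library. The peptide editor chain H2-DMb2 rose by 2.65 ± 0.45. Ctsl, a cathepsin that can cut the invariant chain, was the 1 member that fell, from 72.1, 428 and 399 to 26.4, 24.9 and 21.97 CPM (-3.62 ± 0.45, adjusted p = 8.58e-06).

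Receptors for uptake split, 8 of 30 up and 5 down, 3 without untreated replicate 3, with a median of -0.19. Marco, a scavenger receptor for bacteria, had no count in untreated libraries and 21.02, 20.9 and 15.4 CPM with both stimuli, at least 16.8-fold higher, and Ly75, which encodes the endocytic receptor DEC-205, rose from 38.6, 7.701 and 41.5 to 168, 239.7 and 343 CPM (3.12 ± 0.61). The lectin Clec4a3 rose by 3.52 ± 0.52 on the log2 scale. In contrast Trem2, a lipid-sensing receptor of macrophages, fell from 33.5, 159.9 and 74.5 to 10.1, 8.62 and 2.62 CPM (-3.67 ± 0.53), and the Fc receptor Fcgr3 from 5.15, 11.9 and 31.4 to 0.769, 1.702 and 0 CPM (-4.34 ± 0.78). The summed macrophage list was lower in the same libraries, from 2338 to 6162 CPM untreated and 627 to 969 CPM with both, and its part in these falls was not tested.

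Genes of sterol and fatty acid synthesis rose in 17 of 30 cases and fell in 1, with a median of 1.45. Idi1, which isomerises the isoprenoid unit, went from 8.58, 20.6 and 37.2 to 170.4, 165 and 199 CPM (2.96 ± 0.53, adjusted p = 0.000438), and Hmgcs1, which makes HMG-CoA, from 102, 91.9 and 98.05 to 620.1, 297 and 405 CPM (2.18 ± 0.47). Lss and Cyp51, which form and trim the sterol ring, rose by 2.75 ± 0.51 and 1.67 ± 0.34. The number that rose was 8 and 10 without untreated replicates 1 and 2, and 9 and 10 without LPS plus PGPC replicates 1 and 3. It was 4 without replicate 1 of either group, with a median of 1.22. Of these genes Mvd, in the same pathway, lost its call without LPS plus PGPC replicate 1 (adjusted p = 0.0654).

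Lipid export and storage genes under the nuclear receptors LXR and PPAR went both ways, 4 of 23 up, 2 without LPS plus PGPC replicate 3, and 4 down, with a median of -0.04. Of all genes 6.57% rose and 5.32% fell. Abcg1, a cholesterol exporter, rose from 14.6, 68.04 and 36.3 to 163, 204 and 209 CPM (2.25 ± 0.48), whereas its relative Abca1 fell from 47.2, 37.1 and 70.2 to 0, 3.86 and 10.2 CPM (-3.44 ± 0.74). Acsl1, which activates fatty acids, rose by 2.07 ± 0.36. Apoe, a lipid carrier also counted in the macrophage list, fell from 707, 1727 and 1256 to 153, 135 and 66.2 CPM (-3.38 ± 0.62), and the fatty acid binder Fabp4 fell by 4.17 ± 0.89 on the log2 scale.

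Enzymes of lipid mediators had 4 of 16 that fell and 1 that rose, where 5.32 and 6.57% of all genes did, with a median of -0.97. The number that fell was 2 without LPS plus PGPC replicate 3 or untreated replicate 2. Alox5ap, which hands arachidonic acid to the leukotriene pathway, fell from 450.4, 615 and 449.9 to 168, 158 and 146 CPM (-1.69 ± 0.38, adjusted p = 0.00414), and the lysosomal phospholipase Pla2g15 by 2.71 ± 0.61 on the log2 scale, a call lost without replicate 1 of either group (adjusted p = 0.0692). Pla2g7 had 24.9, 39.6 and 20.7 against 3.33, 15.2 and 5.795 CPM. This enzyme is known to clear short-chain oxidized phospholipids. It was called (-1.81 ± 0.51, adjusted p = 0.02), but not without LPS plus PGPC replicate 1 or 3 or untreated replicate 2 (adjusted p of 0.0859, 0.0937 and 0.109). The prostaglandin E synthase Ptges was the 1 that rose, to 6.66, 18.6 and 9.91 from 1.72, 0.757 and 3.47 CPM, and its call was lost without LPS plus PGPC replicate 2 (adjusted p = 0.0886), untreated replicate 1 (adjusted p = 0.0524) or untreated replicate 2 (adjusted p = 0.129).

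Of 16 genes of itaconate, nitric oxide, arginine and tryptophan metabolism 4 rose and 1 fell, with a median of 1.26. Acod1, the enzyme that makes itaconate, went from 6.01, 0 and 0.151 to 560.1, 799.7 and 521 CPM (9.63 ± 1.24, adjusted p = 1.18e-05), and its untreated level came almost wholly from replicate 1. Without that library the fitted value was 12.76, against an untreated level at or near 0. Ass1, which regenerates arginine, went from 84.1, 141 and 111 to 1369, 717 and 633 CPM (3.01 ± 0.45), and the mitochondrial superoxide dismutase Sod2 rose by 1.21 ± 0.33 on the log2 scale, though not without LPS plus PGPC replicate 2 or untreated replicate 3 (adjusted p = 0.0629 and 0.0615). Kmo, a tryptophan pathway enzyme, fell from 66.1, 84.3 and 186 to 6.15, 29.4 and 9.44 CPM (-2.91 ± 0.58). The groups were apart for Acod1, Ass1 and Kmo. Of 23 glycolysis genes 2 rose, Pfkfb3 and Slc16a3, and none fell, a share near the 6.57% of all genes that rose. Pfkfb3, which makes the activator of the committed step, went from 36.9, 35.98 and 48.2 to 1520.4, 904 and 909.8 CPM (4.78 ± 0.52), and the lactate exporter Slc16a3 rose by 1.52 ± 0.47 but not without LPS plus PGPC replicate 1 (adjusted p = 0.155) or any 1 untreated library (adjusted p up to 0.121). None of 37 complex I subunits passed in either direction, with a median of -0.36.

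Stress genes were mixed. Of 21 NRF2 targets 3 rose and 1 fell, where 6.57 and 5.32% of all genes did, so the number that fell was near that share. The cystine transporter Slc7a11 went from 2.57, 15.4 and 10.3 to 50.6, 114 and 93.7 CPM (3.08 ± 0.52) and the autophagy receptor Sqstm1 from 1248, 1168 and 1723 to 4266, 5975 and 6586 CPM (2.02 ± 0.43). The haem-degrading enzyme Hmox1 fell from 411, 1876 and 853 to 289.7, 396 and 392 CPM (-1.54 ± 0.42). The fall of Hmox1 was not called without untreated replicate 2, its highest library (adjusted p = 0.221), or without LPS plus PGPC replicate 1 (adjusted p = 0.0601). Of 21 genes of the stress and unfolded protein response 4 rose and 1 fell, and here too the number that fell was near the share of all genes. Ppp1r15a, a phosphatase subunit that restores translation, was up by 2.83 ± 0.48. Xbp1, a factor of the endoplasmic reticulum, was down from 404, 449 and 316 to 217, 114 and 93.8 CPM (-1.46 ± 0.36), a call lost without LPS plus PGPC replicate 3 (adjusted p = 0.0583). Of 17 BCL2 family genes 8 rose and 1 fell, the latter again near the share of all genes. Bcl2a1d, an inhibitor of cell death with near-identical copies, went from 2.57, 2.52 and 2.87 to 50.5, 164 and 163 CPM (5.55 ± 0.71), and the death-promoting genes Pmaip1 and Bcl2l11 rose by 3.29 ± 0.51 and 1.71 ± 0.39 on the log2 scale.

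Lysosomal genes gave 5 of 32 that fell and 2 that rose, where 5.32 and 6.57% of all genes did, with a median of -0.06. The number that rose was thus near the share of all genes. Psap, the precursor of sphingolipid activators, went from 17674, 14501 and 13371 to 3006, 4239.9 and 3044 CPM (-2.15 ± 0.36, adjusted p = 0.000231). Ctsd and Ctsb, the main aspartic and cysteine proteases, fell by 2.05 ± 0.42 and 1.86 ± 0.43 on the log2 scale. Atp6v0d2, a proton pump subunit of macrophages and osteoclasts, fell from 7.72, 38.6 and 47.3 to 2.18, 0.567 and 0.0935 CPM (-5.12 ± 0.80). Every treated library was below every untreated one for Psap and Atp6v0d2, and the value for Atp6v0d2 was -6.58 without LPS plus PGPC replicate 1.

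Cell division genes fell in 10 of 35 cases, where 5.32% of all genes did, and rose in none, with a median of -1.37. For 21 of them every LPS plus PGPC library lay below all untreated libraries, as it did for 15.1% of all genes. Rrm2, which makes DNA precursors, went from 63.5, 55.7 and 36.1 to 11.4, 16.5 and 9.07 CPM (-2.06 ± 0.39, adjusted p = 0.00071), Cdc20, an activator of the anaphase ligase, from 55.8, 35.98 and 25.98 to 7.69, 6.24 and 2.898 CPM (-2.79 ± 0.59) and the cyclin Ccnb2 from 61.8, 62.9 and 35.05 to 2.56, 10.9 and 0.561 CPM (-3.50 ± 0.78). All 3 had separate groups. The topoisomerase Top2a fell by 2.01 ± 0.47, though not without replicate 1 of either group (adjusted p = 0.051). The count was 5 without LPS plus PGPC replicate 3 or without untreated replicate 2, and 6 without replicate 1 of either group. The inhibitor of the cell cycle Cdkn1a rose from 102, 112 and 126 to 492, 689 and 807 CPM (2.54 ± 0.51) and Gadd45b by 3.54 ± 0.47.

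Promoter stretches of 3 of these genes hold TTTGAA, the core of the cell cycle homology region (CHR), in capitals. On both strands of the same 250 bases it was found for 9 of the 28 list members with a window (32.1%), for 1227 of 9428 tested genes (13%) and in 5252 of all windows (16.0%), and the share was 13.6% of genes called higher and 15.4% of genes called lower. The stretches are chr4:118437344-118437401 on the minus strand for Cdc20, chr9:70421676-70421761 on the minus strand for Ccnb2 and chr11:99024190-99024252 on the minus strand for Top2a. In Top2a the match is on the other strand, so it reads TTCAAA here, and it is 1 of the 2 matches in that window.
Cdc20: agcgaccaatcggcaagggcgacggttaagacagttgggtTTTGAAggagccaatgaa
Ccnb2: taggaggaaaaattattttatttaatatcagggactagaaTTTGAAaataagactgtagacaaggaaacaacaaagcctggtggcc
Top2a: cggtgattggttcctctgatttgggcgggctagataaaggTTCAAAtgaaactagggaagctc

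Genes of dendritic cell identity fell in part. Of 18 cDC1 identity genes 4 fell and 1 rose, where 5.32 and 6.57% of all genes did, with a median of -1.43. The number that fell was 1 without LPS plus PGPC replicate 3, 7 without LPS plus PGPC replicate 2 and 2 without untreated replicate 2, and 1 with cDC1 libraries only or with the 6 libraries only. Clec9a went from 24.02, 14.4 and 72.4 to 0.128, 9.08 and 1.59 CPM (-3.36 ± 0.94, adjusted p = 0.021), and Flt3, the receptor for the culture's growth factor, from 474, 272 and 308 to 135, 136 and 88.9 CPM (-1.55 ± 0.37). Irf8 went to 681, 196 and 217 CPM (-1.30 ± 0.43, adjusted p = 0.0472), with overlapping groups, and was not called without any 1 of untreated replicates 1 and 2 and LPS plus PGPC replicates 2 and 3 (adjusted p up to 0.229). Batf3 had 44.98, 23.8 and 22.8 CPM and differed by -0.16 ± 0.61 on the log2 scale (adjusted p = 0.91). The value for Clec9a was -5.34 without LPS plus PGPC replicate 2. Its call was lost without untreated replicate 3 (adjusted p = 0.121) or LPS plus PGPC replicate 3 (adjusted p = 0.0937). Zbtb46, a factor of conventional dendritic cells, was the 1 that rose (1.31 ± 0.42, adjusted p = 0.0397), and it lost the call without any 1 of 5 libraries, all but untreated replicate 2 (adjusted p up to 0.165).

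Among marker lists of other cell kinds, many genes fell in the macrophage, plasmacytoid and stromal lists and few in the rest. Of 8 tested neutrophil genes 2 fell, and of 8 B cell genes 1 fell, with none that rose. Of 8 mast cell or basophil genes 1 rose and none fell, and of 12 cDC2 genes 1 rose and 1 fell. The 1 T or NK cell gene and the 3 red cell genes tested were not called. Of 17 macrophage genes 10 fell and 1 rose, with a median of -2.73. The complement gene C1qb went from 66.1, 188 and 99.7 to 6.28, 18.95 and 5.795 CPM (-3.52 ± 0.49, adjusted p = 3.02e-05). Lysozyme, Lyz2, went from 736, 3228 and 3154 to 319.6, 445 and 309.6 CPM (-2.73 ± 0.47). Neither gene overlapped between the groups. Of 12 plasmacytoid genes 6 fell and none rose (median -1.69), with Siglech, their surface lectin, at 34.3, 46.8 and 141 against 0.769, 3.75 and 0.467 CPM (-5.48 ± 0.77) and Runx2 at 465, 247 and 313 against 21.9, 88.3 and 69.5 CPM (-2.51 ± 0.48). Of 13 stromal genes 7 fell (median -2.35) and Col1a1, a collagen chain, had 112, 32.4 and 169.7 against 4.61, 2.84 and 11.3 CPM (-4.05 ± 1.00), not called without replicate 1 of either group (adjusted p = 0.0606). The stromal count was 3 without LPS plus PGPC replicate 1 or 2 and 2 without untreated replicate 3 or without replicate 1 of either group, whereas the macrophage count stayed at 10.

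Of 80 messages for cytosolic ribosomal proteins 17 fell, where 5.32% of all genes did, and none rose, with a median of -1.03. For 57 of them every LPS plus PGPC library lay below all untreated libraries, as it did for 15.1% of all genes. Rpl22 went from 177, 134 and 136 to 39.9, 48.1 and 54.1 CPM (-1.65 ± 0.37) and Rps28 from 472, 334 and 291 to 50.7, 122 and 128 CPM (-1.86 ± 0.46), the latter not called without replicate 1 of either group (adjusted p = 0.125). The number called was 8 and 9 without LPS plus PGPC replicates 2 and 3 and 9 without untreated replicate 2. It was 5 without untreated replicate 1, 3 without LPS plus PGPC replicate 1 and 1 without either, with medians of -1.13, -0.95 and -0.98. With the ribosomal RNA locus left out of the fit, 17 of the 80 fell, with a median of -1.01. The ribosomal RNA share, higher in every untreated library, moved with these messages. Leaving out the locus changes the scaling but not the libraries, so the part of that share in these messages was not tested.

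Several of the genes with the largest fitted changes were absent, or nearly so, from 1 group. Extl1, a glycosyltransferase gene, had 1 count in all untreated libraries and 101, 44.8 and 50.3 CPM with both stimuli, a ratio of 991 with a counting interval of 178 to 39180. Ido2, a relative of the tryptophan-degrading enzyme IDO1, also had 1 untreated count and 12.2, 22.02 and 22.2 CPM with both, a ratio of 303 (54.1 to 11990). Itgb8, an integrin chain that activates TGF-beta, and Efna2, an ephrin, had no count in untreated libraries and 20.8, 25.5 and 47.4 and 16.3, 18.4 and 26.1 CPM with both stimuli, at least 27.5- and 17.8-fold higher. Adam11 and the potassium channel gene Kcnh3 were at least 30.2- and 26.1-fold higher, and Plat, the tissue plasminogen activator, at least 10.6-fold. Among genes absent with both stimuli were Mrgpre, at 5.15, 8.21 and 11.8 CPM in untreated cells and at least 25.000-fold lower, and Pianp, at 2.57, 11.9 and 3.63 CPM and at least 17.97-fold lower.

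What the combination did beyond LPS alone was tested in the same fit, with LPS plus PGPC against LPS in cDC1. Of the 12463 genes 242 (1.94%) were called, 174 (1.4%) higher and 68 (0.546%) lower with PGPC added, and 2084 (16.7%) had an unadjusted p under 0.05. Leaving out 1 library at a time gave 60 to 273 calls: 60 without LPS replicate 1, 64 without LPS replicate 2, 104 without LPS plus PGPC replicate 3 and 151 without LPS plus PGPC replicate 1. Il1b was not called, with 278, 194 and 227 CPM after LPS and 201, 384 and 323 CPM after both (0.38 ± 0.64, adjusted p = 0.831). Tnf (-1.45 ± 0.46, adjusted p = 0.103) and Cd40 (-1.78 ± 0.52, adjusted p = 0.0712) had lower fitted values with PGPC added and missed the threshold, whereas DESeq2 called both (adjusted p = 0.0357 and 0.0102). Cd40 was also called with no filter on low counts (adjusted p = 0.0142) and with cDC1 libraries only (adjusted p = 0.0257). By edgeR, the lists for interferon-stimulated genes, NF-kB and costimulation, with 40, 24 and 14 genes tested, held no call in either direction. Their medians were 0.12, -0.45 and -0.51. With 1.94% of all genes called, lists of this size would hold few calls or none, so the lack of calls is near that share.

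MHC class I and lipid genes were among those higher with the combination. Apart from Fhl2 and Sp6, the genes named for this contrast were picked after their values were seen. Of 20 called genes followed without each library in turn, 5 kept the call. In the MHC class I list 3 of 23 genes were higher, H2-D1 with 1004, 1437 and 1843 CPM after LPS and 12181, 3562 and 3629 after both (2.18 ± 0.43, adjusted p = 0.00877), H2-K1 with 425, 533 and 724 CPM after LPS and 2795, 1450.1 and 1338 after both (1.73 ± 0.36) and H2-Q7 with 34.7, 38.4 and 54.9 CPM after LPS and 194, 154 and 139 after both (1.93 ± 0.49). None of the 3 passed without LPS replicate 1, LPS replicate 2 or LPS plus PGPC replicate 1, where the adjusted p of H2-D1 was 0.077, 0.05 and 0.0599. Among lipid genes, the lipoprotein lipase Lpl had 19.2, 9.45 and 10.6 CPM after LPS, 693, 409 and 879 after PGPC and 157, 96.9 and 167 after both (3.39 ± 0.45, adjusted p = 0.000469), and the lipid droplet protein Plin2 had 32.3, 21.9 and 35.5, 493, 441 and 489 and 228, 152 and 174 CPM (2.62 ± 0.36). Against untreated cells, with 53.2, 188 and 125 and 197, 414 and 241 CPM, neither was called. The sterol enzymes Fdps and Fdft1 were higher by 1.85 ± 0.38 and 2.42 ± 0.62, and the nuclear receptor Pparg by 3.23 ± 0.80. The call for Fdft1 was lost without any 1 library but LPS replicate 3 (adjusted p up to 0.182), that for Pparg without any 1 LPS library or LPS plus PGPC replicate 3 (up to 0.142), and that for Fdps without LPS replicate 2 (adjusted p = 0.0799).

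Among enzymes and signalling genes, Ass1 had 232, 255 and 313 CPM after LPS and 1369, 717 and 633 after both (1.77 ± 0.43), and Alox5ap 43.5, 46.7 and 36.7 and 168, 158 and 146 (1.90 ± 0.39), between LPS and the untreated level. Dusp5 and Klf6 were higher by 1.91 ± 0.40 and 2.03 ± 0.38. The calls were lost for Ass1 without any 1 LPS library or LPS plus PGPC replicate 1 (adjusted p up to 0.134), for Alox5ap without LPS replicate 1 (0.0615) and for Dusp5 without LPS replicate 1 or 2 or LPS plus PGPC replicate 3 (up to 0.085). Lower with the combination were Sp6, a transcription factor gene, at 103, 100.4 and 138 CPM after LPS and 5.25, 1.48 and 2.15 after both (-5.27 ± 0.67, adjusted p = 0.000469), Marco at 383, 87.99 and 62.9 and 21.02, 20.9 and 15.4 (-3.23 ± 0.83), the survival gene Bcl2l1 at 403, 163 and 151 and 67.7, 62.2 and 53.9 (-1.97 ± 0.41) and Kmo at 98.8, 63.2 and 56.99 and 6.15, 29.4 and 9.44 (-2.29 ± 0.56). Marco lost its call without any 1 library but LPS replicate 3 (adjusted p up to 0.331), Kmo without any 1 library but LPS plus PGPC replicate 2 (up to 0.15) and Bcl2l1 without LPS replicate 1 (0.118) or LPS plus PGPC replicate 3 (0.0617). In the stromal list 3 of 13 genes were higher, and its sum was 5.88, 30.1 and 40.5 CPM after LPS against 126, 25.5 and 143 CPM after both. Fhl2, a cytoskeletal adapter outside that list, had 0, 0 and 0.294 against 13.2, 1.13 and 3.93 CPM and was called higher (adjusted p = 0.00409), though not without LPS replicate 1 (adjusted p = 0.0766), and the part of the stromal level in it was not tested.

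**Figure D4:**
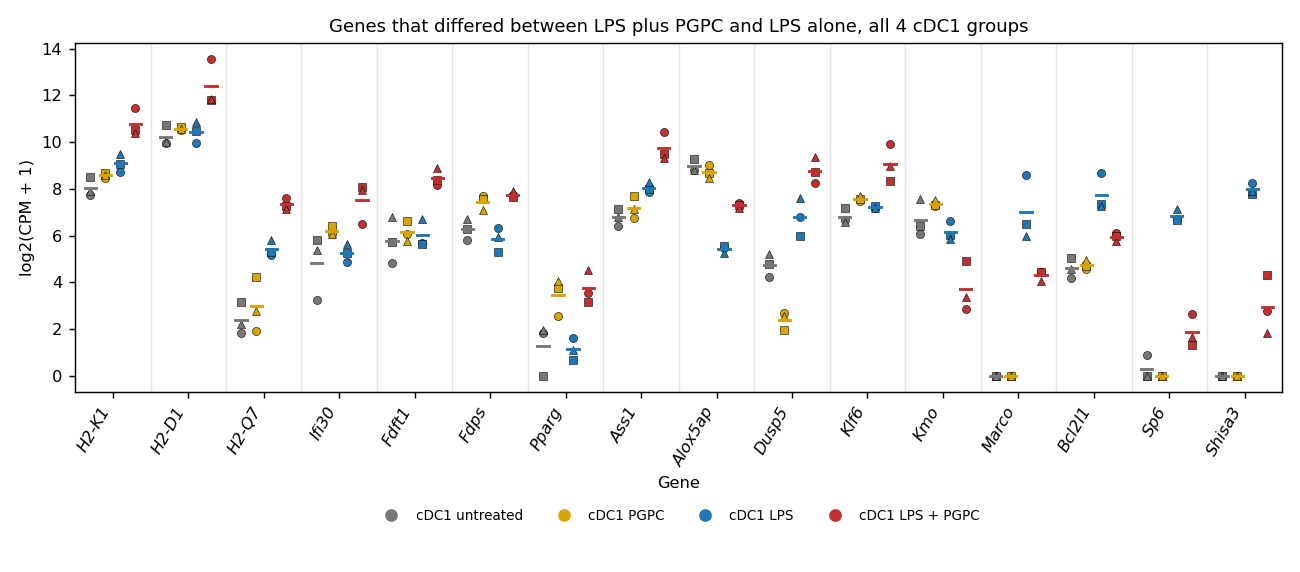
Level of 16 genes in each cDC1 library as log2(CPM + 1), with grey, yellow, blue and red points for untreated, PGPC, LPS and LPS plus PGPC, circles, squares and triangles for replicates 1, 2 and 3, and a bar at the mean of these log values. The class I genes, Fdft1 and Dusp5 are highest with both stimuli, whereas Kmo, Marco, Bcl2l1, Sp6 and Shisa3 are lower with both than with LPS.

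Against PGPC alone, the combination gave 2044 calls (16.4%), 1220 higher (9.79%) and 824 lower (6.61%). Il1b had 19.1, 0 and 4.9002 CPM after PGPC and was higher by 5.15 ± 0.76 on the log2 scale with both (adjusted p = 5.19e-05), and Ccr7 had 137, 175 and 169 CPM and was higher by 4.25 ± 0.60. Against the same untreated libraries, LPS alone gave 2235 calls (17.9%) and PGPC alone 259 (2.08%). All of these comparisons share libraries with the main one. Il1b had log2 fold changes of 9.11 ± 1.02 after LPS, 4.33 ± 0.95 after PGPC and 9.48 ± 1.03 after both, Ccl5 of 6.07 ± 0.50, 2.28 ± 0.43 and 7.25 ± 0.53, and Ccr7 of 5.66 ± 0.64, 1.55 ± 0.54 and 5.81 ± 0.64.

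Whether the effects of the agents add on the log2 scale was tested as LPS plus PGPC minus LPS minus PGPC plus untreated. Of the 12463 genes 161 (1.29%) departed from additivity, 114 (0.915%) above and 47 (0.377%) below the sum, and 2093 (16.8%) had an unadjusted p under 0.05. The count was 33 without LPS replicate 1, 53 without LPS plus PGPC replicate 3, 77 without LPS replicate 2, 251 without PGPC replicate 2 and 351 without PGPC replicate 1. Dusp5, picked after its values were seen, had 18.02, 26.9 and 35.8 CPM untreated, 112, 62.6 and 191 after LPS, 5.41, 2.93 and 4.84 after PGPC and 305, 423 and 652 after both, so that PGPC alone lay below and the combination above every other library, with a departure of 4.5 ± 0.59 (adjusted p = 0.000678). Il1b departed by -3.96 ± 1.16 (adjusted p = 0.086) and Ccr7 by -1.41 ± 0.74 (adjusted p = 0.339), and neither passed. Il1b stayed uncalled in 19 of 22 alternative settings and was called below the sum in the others. Among these was the fit without PGPC replicate 2 (-4.31, adjusted p = 0.0097).

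The response of cDC1 was set against that of cDC2, which had 950 calls for the same contrast (7.62%), 676 (5.42%) higher and 274 (2.2%) lower. A test of the difference between the responses called 38 genes (0.305%), 10 (0.0802%) with a larger and 28 (0.225%) with a smaller log2 fold change in cDC1, and 1212 (9.72%) had an unadjusted p under 0.05. It called 5 to 62 genes when 1 library was left out, 5, 16 and 19 without cDC2 untreated replicates 4, 5 and 6, 19 without cDC2 LPS plus PGPC replicate 5, 24 without cDC1 untreated replicate 2, and 22 and 62 without cDC1 LPS plus PGPC replicates 3 and 1. Untreated replicate 6 of cDC2 held 243870 counts, and with libraries of at least 1000000 counts only, 13 genes were called. Of 11 called genes followed without each library in turn, 2, Ctsl and Tnfrsf11a, kept the call. Flt3, Ctsl, C1qb, Batf and Nrp2 were picked after their values were seen.

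Flt3 fell in cDC1, by the values above (-1.55 ± 0.37), and rose in cDC2 from 14.4, 15.5 and 7.46 to 29.2, 49.99 and 39.8 CPM (1.53 ± 0.40, adjusted p = 0.0149). Ctsl fell in cDC1, as above, and had 391, 289 and 269 against 321, 315 and 258 CPM in cDC2 (-0.09 ± 0.41, adjusted p = 0.949).

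Of the macrophage genes, C1qb had 325, 297 and 299 CPM in untreated and 262, 236 and 243 CPM in treated cDC2, and it was not called there. Batf, an AP-1 family factor, rose in cDC2 from 2.41, 1.804 and 0 to 56.5, 29.6 and 28.7 CPM (4.29 ± 0.61) and had 10.3, 23.6 and 8.61 and 19.6, 28.3 and 21.97 CPM in cDC1 (0.69 ± 0.47, adjusted p = 0.39). In the other direction Cd83 rose by 4.36 ± 0.43 in cDC1 and by 1.64 ± 0.40 in cDC2, where it went from 60.1, 37.9 and 52.2 to 109, 186 and 171 CPM, and Tnfrsf11a, which encodes RANK, rose in cDC1 from 17.2, 13.5 and 19.3 to 64.97, 244 and 246 CPM (3.47 ± 0.48) and had 388, 493 and 425 and 388, 336 and 429.9 CPM in cDC2. For Il1b, which rose in both, the difference was 3.33 ± 1.24 (adjusted p = 0.297), and for Ccr7 1.59 ± 0.75 (adjusted p = 0.493). The untreated level of Flt3 was lower in every cDC2 library than in every cDC1 library.

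**Figure D5:**
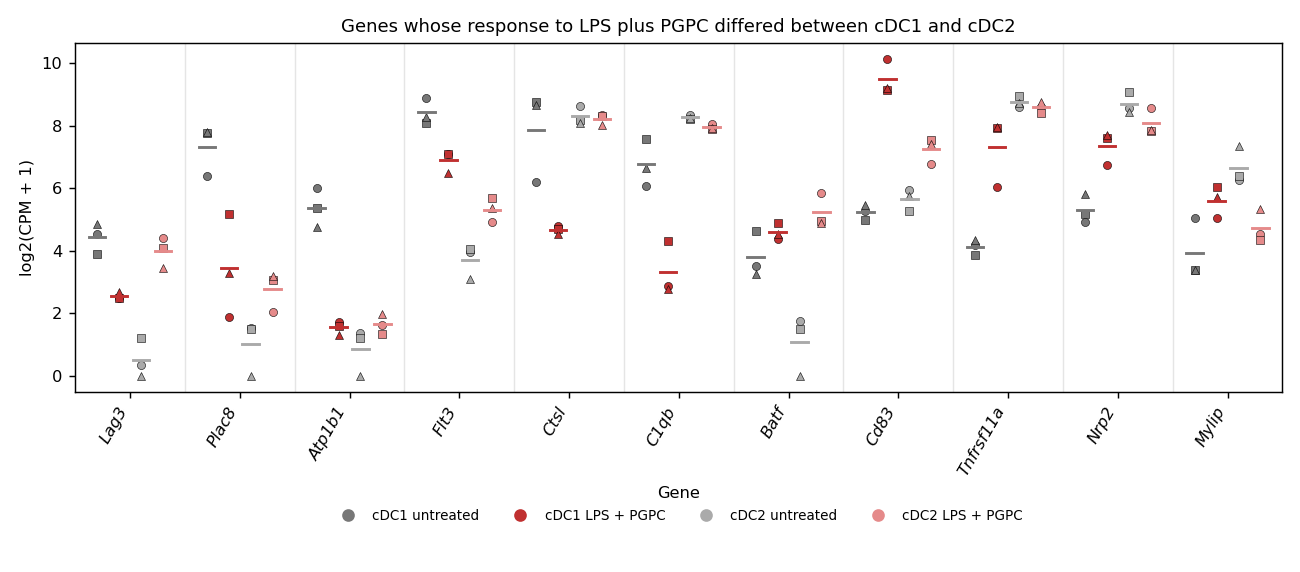
Level of 11 genes in each library as log2(CPM + 1), with dark grey and red points for untreated and treated cDC1, light grey and pink points for untreated and treated cDC2, circles, squares and triangles for the 3 replicates of a group in order of their number, and a bar at the mean of these log values. For Lag3 and Flt3, whose differences in log2 fold change were -6.46 and -3.08, the cDC1 points go down and the cDC2 points up with LPS plus PGPC, and for Cd83, Tnfrsf11a and Nrp2 the cDC1 points go up, as the cDC2 points do for Cd83 but not for the other two.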

How the data were processed

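Bulk RNA sequencing was done on RNA from a fixed small number of cells per reaction, amplified by Smart-Seq2, which does not keep strand, so a gene and its antisense partner cannot be told apart. For each gene the authors deposited expected counts, estimated with RSEM on GRCm38 after bcl2fastq 2.2, per the submitters' processing notes, which state neither the RSEM version nor the gene annotation. Of the nonzero values 21% were not whole (tolerance 1e-06), and all were rounded. The fit took 23 libraries in 8 groups. It left out the 12 alum libraries and a cDC2 PGPC library with 3805 counts, under the minimum of 100000.

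edgeR 4.0.16 (R 4.3.3) was used with TMM scaling, a filter at a minimum count of 10, a robust quasi-likelihood fit with 1 estimate of spread for all 8 groups, and Benjamini-Hochberg adjustment over all genes tested. The common biological coefficient of variation was 0.545. Errors after ± are approximate standard errors of log2 fold changes. Each is the size of the log2 fold change divided by the square root of the test's F statistic, and was not estimated apart from the test. Levels are CPM on TMM-scaled totals. Folds against a group without counts use a floor of 3 counts per library, and counting intervals are exact at 95% and cover counting error only. The alternatives were RLE scaling, DESeq2 1.42.0, other filters, a replicate block, the ribosomal RNA locus left out, other sets of libraries and each library left out.

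The named genes are the 15 highest and 15 lowest called genes of at least 5 CPM whose groups do not overlap, up to 5 members of each list with the smallest p, and a panel of 33 genes, with 6 and 6 called genes plus the panel for the other tests. Only part of this selection is described, and some called genes are not reported here. The gene lists and their members were chosen with earlier results of these data known. The promoters shown are those with a motif match and the smallest p, up to 3 per list. In a test on simulated data for the main comparison (12268 genes), 38.8% of 100 genes with a log2 change of 2 and 71% of 100 with a change of 4 were called, and 4 of 113 calls were false. The simulated counts followed the fit's own spread, with all other genes unchanged. They held no outlying library and no difference in ribosomal RNA share, so the test does not measure errors from these.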

Additional observations from a re-analysis of the deposited data

Results flagged for a closer look

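The test of the difference between the responses of cDC1 and cDC2 to LPS plus PGPC (edgeR's quasi-likelihood test, adjusted over all genes) called the following genes of those named. The value is the log2 fold change in cDC1 minus that in cDC2. It was -6.46 for Lag3 and -3.08 for Flt3, which fell in cDC1 and rose in cDC2. It was -5.29 for Plac8, -5.15 for Atp1b1, -3.53 for Ctsl and -3.20 for C1qb, which fell in cDC1 and were not called in cDC2. Batf, at -3.60, rose in cDC2 and was not called in cDC1. The difference was 3.65 for Tnfrsf11a and 2.68 for Nrp2, which rose in cDC1 and were not called in cDC2, 2.73 for Cd83, which rose in both, and 3.57 for Mylip, which rose in cDC1 and fell in cDC2. Of these 11 genes, 2 kept the call when each library was left out in turn.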

How the results depend on the processing

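The main comparison gave 1482 calls and 1070 to 1273 when 1 library was left out, and with all 36 libraries, alum included, it gave 364. With the ribosomal RNA locus left out it gave 1510. The share of calls that were higher was 55.3%, and 50.5% of 1991 calls by DESeq2, 58.3% of 1725 with no filter and 64.9% of 1090 (383 lower) with only the 6 libraries. Of 143 called genes followed, 119 kept call and direction in every one of 18 settings but all 36 libraries, 44 in every setting, and 125 without each of the 6 libraries. All 143 kept their sign without each of these, but the fold of 53 moved by over 1.5 times without at least 1. Tlr4, not called, ranged from -0.84 to 0.111 with 1 library left out, positive without LPS plus PGPC replicate 1, and was 0.38 without replicate 1 of either group. Batf3, not called, ranged from -0.561 to 0.003, positive without LPS plus PGPC replicate 3. RLE scaling moved the median of all genes by at most 0.08. LPS plus PGPC against LPS gave 242 calls, 71.9% of them higher, and 585 with no filter, 722 by DESeq2 (58.2% higher), 8 with all 36 libraries and 60 to 273 with 1 library left out. With cDC1 libraries only it gave 242 calls, 52.9% of them higher. Against PGPC alone it gave 2044, 503 with all 36 libraries and 1366 to 1878 with 1 library left out. Departures from additivity numbered 161, and 592 with no filter, 506 by DESeq2, 18 with all 36 libraries, 58 with cDC1 libraries only and 33 to 351 with 1 library left out. The difference from cDC2 called 38 genes, and 221 with no filter, 219 by DESeq2, 3 with all 36 libraries, 13 with libraries of at least 1000000 counts and 5 to 62 with 1 library left out. The causes were not tested. Same-numbered libraries were not taken as pairs, since not every correlation of their deviations from the group mean was over 0.1, a cut set by choice. These correlations were 0.045, -0.028 and 0.134 for untreated, 0.176, 0.03 and 0.133 for LPS and 0.124, 0.075 and 0.059 for PGPC, each with LPS plus PGPC. Libraries of unlike number had lower values in most cases, -0.149 to 0.091, -0.159 to 0.051 and -0.124 to 0.07 in the same order. The labels do not say whether equal numbers mark shared cultures. The replicate block gave 1448, 275, 2026, 150 and 46 calls in the 5 tests, and 142 of the 143 genes kept their call under it. Small changes of genes under about 2.57 CPM in untreated replicate 1 were not detectable at its depth.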
